A study of Arabidopsis thaliana with 9 samples.

Results

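Leaves of an Arabidopsis thaliana line with an inducible DVL4 transgene, treated with dexamethasone (dex), were compared with dex-treated leaves of an empty vector line. The comparison used 3 arrays per group, 6 of the 9 arrays in the series, and was read over all 22746 probe sets of the Affymetrix ATH1 array that are not manufacturer controls. The arrays were picked by their sample titles and not by any measured value. DVL4 dex leaves came from plants in the Columbia background that carry the GVG construct with the DVL4 coding sequence, given 30 µM dex in water (the unit is written "um"). Empty vector dex leaves came from Columbia plants that carry the GVG construct with nothing in its cloning site, given the same dex. The other 3 arrays, DVL4 mock, came from the DVL4 line after mock treatment. Their values are given here only as a description, but they entered the fit. The spread behind the standard errors, p-values and calls was thus estimated over all 9 arrays. All plants had GVG, grew at 22 °C with 16 h days to 6 expanded rosette leaves, and were sampled 10 h after treatment. Each replicate pooled the largest rosette leaf of 20 plants.

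DEVIL peptides, also called ROTUNDIFOLIA-like, are a family of small plant proteins to which DVL4 belongs, and their overexpression in Arabidopsis is known for compact rosettes with short, broad leaves. GVG is a chimeric transcription factor that a glucocorticoid such as dex switches on, so that the sequence placed behind its target promoter is transcribed. The submitters' text gives the empty vector line as the control for what dex does by itself, and reports the overexpression form only for the DVL4 line under dex, with both lines otherwise like Columbia. Each construct was represented by a single line, so line and transgene cannot be told apart. Neither the promoter that drives GVG nor the time of day at harvest is given in the sources used here. None of the 45 DVL/RTFL entries looked up had a named probe set, so the level of DVL4 itself was not analysed here.

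Values are intensity on a linear scale as deposited from dChip, with array medians between 75.1 and 83.8. Before log2 was taken, values under 4.92 (the 5th percentile of all values) were raised to it, and folds and log2 changes are on that floored scale, DVL4 dex over or minus empty vector dex. A gene is "called", and said to have risen or fallen, where limma gave a Benjamini-Hochberg adjusted p under 0.05 over all 22746 probe sets. Errors on log2 changes are standard errors (SE). P-values measure the spread between pooled samples, and the number of arrays limits the precision.

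A set of 3 arrays stood apart in the quality of their labelled RNA. On ATH1 arrays the control transcripts have probe sets near the 5' and the 3' end, and a low ratio of the first to the second is a usual sign that RNA or labelled copies lack their 5' part. For the spiked-in dap transcript the ratio was 0.278, 0.262 and 0.832 in the DVL4 dex arrays, 0.228, 1.33 and 0.601 in the empty vector dex arrays, and between 0.946 and 1.26 in DVL4 mock. DVL4 dex replicates 1 and 2 and empty vector dex replicate 1 lay under 0.5 and are called low-5' below. A second dap probe set pair also put DVL4 dex replicate 3 just under that line, at 0.481. Among the plant's own transcripts, the actin ratio was 0.330, 0.226 and 0.538 in DVL4 dex and 0.279, 0.580 and 0.422 in empty vector dex arrays, while the ubiquitin ratio was between 1.02 and 1.25 in all 9 arrays, and a second GAPDH pair between 0.945 and 1.28. The low-5' state was unequal between the groups, with 2 arrays of DVL4 dex and 1 of the empty vector.

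**Figure D1:**
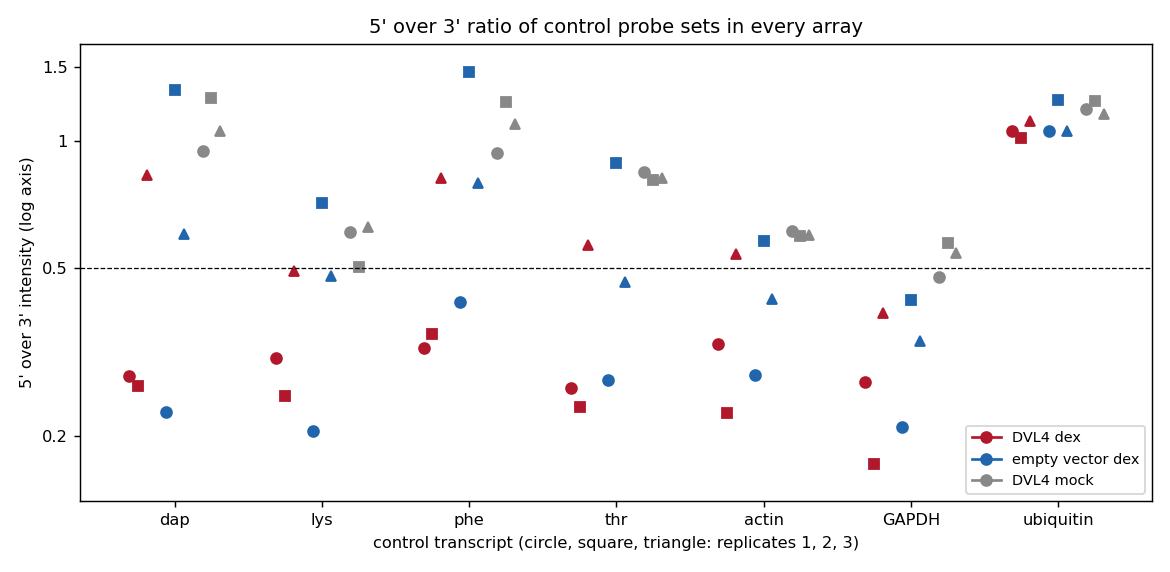
Ratio of 5' to 3' intensity (log axis) of 7 control transcripts in every array, with DVL4 dex left of empty vector dex and DVL4 mock; the dashed line is the 0.5 limit used for dap. DVL4 dex replicates 1 and 2 and empty vector dex replicate 1 lie lowest for dap, lys, phe, thr, actin and GAPDH, and all arrays lie near 1 for ubiquitin.

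The arrays carried the markers of leaf tissue. The 3 measured mesophyll markers (RCA, LHCB4.1 and PRK) summed to between 25931 and 28291 in DVL4 dex and between 26380 and 28751 in empty vector dex arrays, and none was called. Markers of the stomatal lineage (SPCH, MUTE and FMA) summed to between 128 and 170 in DVL4 dex and between 139 and 146 in empty vector dex arrays, again with none called. Root markers (PYK10, EXPA7 and EXPA18) summed to at most 113 and 112, the meristem marker CLV3 stayed at or under 14.4 in all arrays, and FDH of the epidermis was not called. No vascular, flower or pollen marker had a named probe set. Of the remaining markers, TRY of trichomes fell and SAG29 of senescing leaves rose, and both are described with their gene groups. In such whole-leaf samples, fewer cells of a type and less RNA per cell cannot be told apart.

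The lines differed in 2317 of 22746 probe sets (10.2%), of which 1054 (4.63%) were higher and 1263 (5.55%) lower in DVL4 dex. Over the 13356 genes that a probe set names alone, each taken by its brightest probe set, 1181 were called (8.84%), of which 538 rose (4.03%) and 643 fell (4.81%). At least 2-fold changes made up 122 of these rises and 162 of these falls. Only 1557 genes had a name other than a locus code, and 80 of them rose (5.14%) and 95 fell (6.1%), so that functions can be stated for a minority of the changed genes. The arrays of the groups did not overlap for 23.3% of all genes and 26.8% of those with such a name. The median change of all genes was 0.00. With every array centred on its median, 1476 probe sets were higher and 1080 lower, so the split between rises and falls depended on the scaling.

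**Figure D2:**
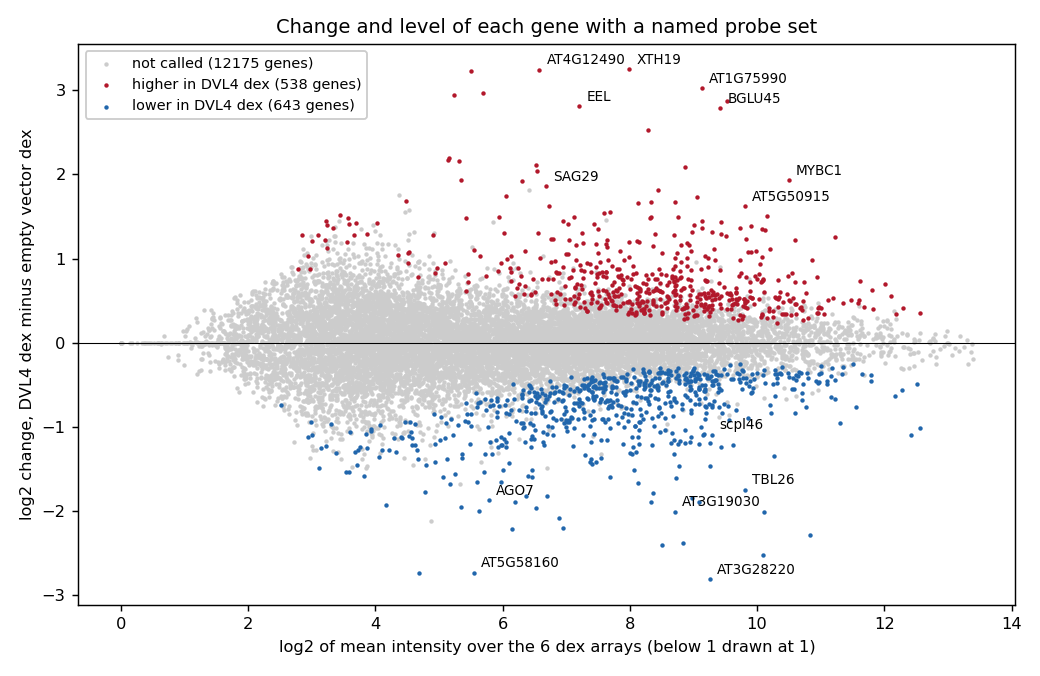
Log2 change (DVL4 dex minus empty vector dex) against the log2 of the mean intensity of the 6 dex arrays for 13356 genes, with the 538 called higher in red and the 643 called lower in blue. The largest changes reached about 3 on the log2 scale in both directions, from XTH19 at 3.25 to AT3G28220 at -2.82.

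Genes for enzymes and transcription factors were among the largest rises with a name. BGLU45, a beta-glucosidase that releases monolignols, the building blocks of lignin, had 1239, 1344 and 1002 in DVL4 dex, against 148, 155 and 222 in empty vector dex arrays, and 10.7, 10.1 and 8.81 in DVL4 mock. It rose 6.9-fold (2.79 ± 0.18 SE, limma adjusted p = 7.63e-05), and the empty vector arrays in turn lay above all mock arrays. Its close relative and chromosomal neighbour BGLU46 was not called (0.75). MYBC1, a MYB-type transcription factor gene linked to freezing tolerance, had 2563, 2289 and 2027 in DVL4 dex, against 586, 662 and 552 in empty vector dex arrays, and 155, 174 and 138 in mock. Its rise of 1.93 ± 0.12 had a limma adjusted p of 5.76e-05, and all arrays of the 3 groups were apart.

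EEL, a bZIP transcription factor gene known from late seed development, stood at 272, 287 and 211 in DVL4 dex, against 23.0, 42.4 and 48.3 in empty vector dex arrays. The groups were far apart (2.82 ± 0.27, limma adjusted p = 0.000554), and the mock arrays lay lower still, between 11.0 and 11.9. XTH19, for an enzyme that cuts and rejoins xyloglucan chains of the cell wall, had 349.5, 486 and 537 in DVL4 dex, against 38.1, 37.2 and 74.6 in empty vector dex arrays. Here 2 mock arrays, at 32.2 and 27.7, lay below the empty vector values and 1, at 108, above them. CYP71B26, a cytochrome P450 gene, had 708, 713 and 495 in DVL4 dex, against 183, 180.5 and 233 in empty vector dex arrays, a rise of 1.67 ± 0.19 (limma adjusted p = 0.000845).

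Several rises without a gene name were very even between replicates. AT5G50915 had 1214, 1471 and 1383 in DVL4 dex, against 439, 446 and 431 in empty vector dex arrays, with mock between 485 and 493. Its change of 1.62 ± 0.08 had a limma adjusted p of 2.53e-05 and stayed called in all 24 alternative analyses. AT1G75990 had 1088, 1006 and 911 in DVL4 dex, against 138, 101 and 131 in empty vector dex arrays, and the mock values lay within the range of the empty vector values. AT3G27770, at 2256, 2137 and 2074 in DVL4 dex, against 991, 825 and 974 in empty vector dex arrays, and AT2G46490, AT1G07040, AT1G02816 and AT3G20300 rose between 2.04-fold and 2.58-fold, with limma adjusted p-values between 0.000157 and 0.000282 over these 5. Other rises were uneven or rested on low values. AT1G15010 ranged from 97.5 to 336 in the empty vector arrays, below 1198, 1651 and 991 in DVL4 dex. AT5G10120 stood at 77.4, 112 and 55.9 in DVL4 dex, against 7.70, 13.6 and 5.56 in empty vector dex arrays. Its 9.39-fold rise shrank to 3.91-fold when the floor was set at the 25th percentile, an intensity of 20.1. AT4G12490 rose by 3.25, with 111, 227 and 182 in DVL4 dex, against 20.2, 19.5 and 13.6 in empty vector dex arrays. Its mock values, 460, 242 and 180, lay within or above the DVL4 dex range, so the DVL4 line was also high without dex.

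Among the falls, TBL26, of the TRICHOME BIREFRINGENCE-LIKE family of cell wall acetyltransferases, had 335, 461 and 442 in DVL4 dex, against 1532, 1193 and 1428 in empty vector dex arrays. It fell 3.37-fold (-1.75 ± 0.19, limma adjusted p = 0.000839). Its neighbour GT72B1, a glycosyltransferase gene, also fell, at 833, 989 and 823 in DVL4 dex, against 1335, 1440.4 and 1654 in empty vector dex arrays. The serine carboxypeptidase-like gene scpl46 had 377, 407 and 418 in DVL4 dex, against 829, 824 and 920.1 in empty vector dex arrays, a change of -1.10 ± 0.08 (limma adjusted p = 0.000111).

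AT3G19030 fell 4.03-fold with little spread, at 179.7, 173 and 148 in DVL4 dex, against 642, 699 and 671 in empty vector dex arrays. The mock arrays, between 328 and 340, lay between the groups (limma adjusted p = 1.58e-05). AT3G28270 had 366, 427 and 523 in DVL4 dex, against 1387, 2093 and 1859.6 in empty vector dex arrays, and both genes kept their call in all 24 alternative analyses. AT5G58160 had 13.1, 12.4 and 11.1 in DVL4 dex, against 80.8, 72.0 and 91.9 in empty vector dex arrays, and its 6.67-fold fall was 4.04-fold above the higher floor. The falls of AT1G19960 and AT3G48080 sat on high empty vector values. For AT3G48080 these were 105, 98.2 and 146, while DVL4 dex had 28.7, 32.1 and 15.9 and DVL4 mock 39.0, 34.0 and 20.7. AT5G15140 fell 4.01-fold against the empty vector leaves, with 22.7, 21.1 and 15.8 in DVL4 dex, against 88.0, 77.2 and 71.6 in empty vector dex arrays, and DVL4 mock was lower still or level with DVL4 dex, at 7.44, 11.8 and 16.1.

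Leaving out 1 array ended the call of 4 of the 42 genes named for size or p. AT5G03350 (-2.28) lost it without DVL4 dex replicate 1 or 3 or empty vector dex replicate 3, with limma adjusted p-values of 0.0762, 0.0512 and 0.0565. AT1G13470 (-2.09) lost it without DVL4 dex replicate 1 (0.0653) or empty vector dex replicate 3 (0.0543). The fructan-degrading wall invertase relative cwINV6 (2.04) lost it without DVL4 dex replicate 1 (0.0917) or replicate 2 (0.083). AT5G51950 (-1.90) lost it without any one of the 6 dex arrays but empty vector dex replicate 1, with limma adjusted p-values from 0.0501 to 0.0615. The falls of AT1G13470 and AT5G51950 sat on high empty vector values, 77.7 to 276 and 76.6 to 139. DVL4 dex had 32.1 to 53.3 and 22.2 to 35.5, and DVL4 mock lay lower still, at 24.3 to 27.3 and 3.72 to 12.2.

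**Figure D3:**
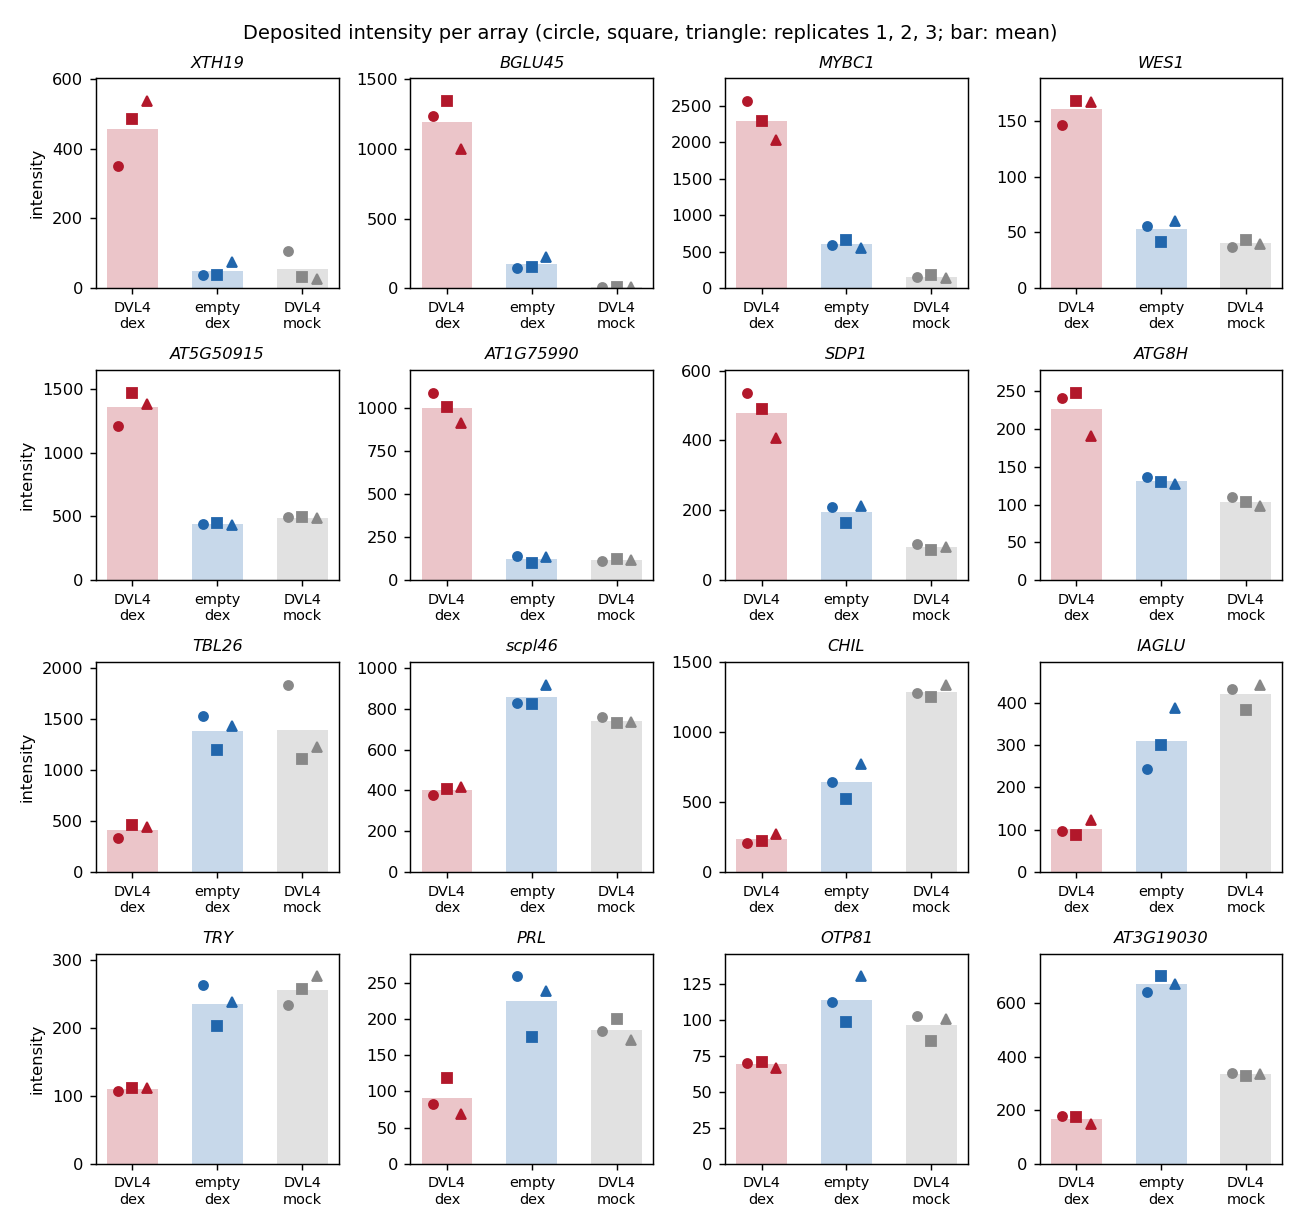
Deposited intensity of 16 genes in every array, with points for replicates, bars for group means, and DVL4 dex left of empty vector dex and DVL4 mock. In all 16 genes the 3 DVL4 dex points lie wholly above (upper 8 panels) or wholly below (lower 8) the 3 empty vector dex points, while the mock points lie on either side of the empty vector points.

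Some genes of lipid and amino acid breakdown and of acetyl-CoA supply rose in DVL4 dex leaves, and none of those measured fell. SDP1, the lipase that starts the breakdown of stored oil in Arabidopsis seedlings, had 537, 489 and 408 in DVL4 dex, against 209, 165 and 212 in empty vector dex arrays, and between 85.4 and 104 in mock. It rose 2.45-fold (1.29 ± 0.14, limma adjusted p = 0.000839). Of 5 measured genes of lipid mobilisation 2 rose, the other being FAAH, a fatty acid amide hydrolase gene, by 0.35. The call of FAAH was lost without DVL4 dex replicate 1 or 2 or empty vector dex replicate 3 (limma adjusted p = 0.0721, 0.0712 and 0.0701). ICL, AIM1 and SDP1-LIKE were not called, at 0.12, 0.38 and -0.53.

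Of 11 genes of amino acid breakdown and its electron transfer flavoprotein, all lay above 0, 4 rose and 0 fell. DELTA-OAT, the ornithine aminotransferase, led them with 539, 485 and 453 in DVL4 dex, against 249, 226 and 231 in empty vector dex arrays (1.06 ± 0.09, limma adjusted p = 0.000371). ASPGA1, an asparaginase gene, rose by 0.45, IVD, the isovaleryl-CoA dehydrogenase of leucine breakdown, by 0.60, and ETFBETA, a subunit of the flavoprotein that takes its electrons, by 0.53. Without DVL4 dex replicate 1 the list had 2 calls, since IVD (0.0675) and ETFBETA (0.0723) missed the threshold, and ETFBETA also did without replicate 2 (0.0623).

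Of 7 genes around cytosolic acetyl-CoA and citrate 4 rose and 0 fell, with a list median of 0.41. ACLB-1, a subunit of the ATP-citrate lyase that makes cytosolic acetyl-CoA, had 2020.4, 1983 and 1722 in DVL4 dex, against 1243, 821 and 1213 in empty vector dex arrays. The other subunit gene ACLA-1 rose by 0.41 ± 0.07, the cytosolic isocitrate dehydrogenase gene cICDH by 0.62 ± 0.07 and the acetyl-CoA synthetase gene ACS by 0.46 ± 0.10. For cICDH the DVL4 dex arrays were level, at 4362, 4359 and 4362, against 2635, 3113 and 2772 in empty vector dex arrays. ACS missed the threshold without DVL4 dex replicate 2 (limma adjusted p = 0.0697). The sphingoid base genes LCB2 and TSC10A, which act in the first steps of sphingolipid synthesis, rose by 0.61 ± 0.09 and 0.59 ± 0.10, while TSC10B and DPL1 were not called (0.47 and 0.01).

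All 11 measured autophagy genes lay above 0, and 4 of them, each for an ATG8 protein, rose. Apart from ATG3 and AT5G66930, every measured gene of the list belonged to the ATG8 family, so other steps of autophagy were hardly covered. ATG8 proteins are joined to lipids on the growing autophagosome membrane. ATG8H had 242, 248 and 191 in DVL4 dex, against 136, 130.1 and 128 in empty vector dex arrays, and ATG8E had 347, 335 and 291 in DVL4 dex, against 214, 181 and 179 in empty vector dex arrays. They rose by 0.78 ± 0.12 and 0.76 ± 0.12 (limma adjusted p = 0.00467 and 0.00377). APG8A rose by 0.51 and ATG8F by 0.35, and both missed the threshold without DVL4 dex replicate 1 (0.0624 and 0.111) or replicate 2 (0.0565 and 0.0997). ATG8F also missed it without empty vector dex replicate 1 (0.0697) or 3 (0.0687). ATG3, for the enzyme that joins ATG8 to lipid, and AT5G66930 were not called (0.08 and 0.11).

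Some membrane traffic genes showed small rises, most of which depended on single arrays. Of 26 genes of vesicle traffic and secretion 22 lay above 0, 8 rose and 0 fell, with a median of 0.32 and a largest rise of 0.61. With low-5' status as a covariate 6 of the 8 remained called, without SEC5A and KEU (limma adjusted p = 0.0515 and 0.058). YKT61, a SNARE that serves membrane fusion, had 1555, 1518 and 1362 in DVL4 dex, against 1052, 1141 and 1113 in empty vector dex arrays (0.42 ± 0.08, limma adjusted p = 0.00765). It was the only one of the 8 whose call did not depend on a single array. Leaving out DVL4 dex replicate 1 or 2, both low-5' arrays, gave a count of 1 each. Leaving out DVL4 dex replicate 3 or empty vector dex replicate 2 or 3 gave 4 each.

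The lists of lipid mobilisation, amino acid breakdown, acetyl-CoA, sphingoid bases and vesicle traffic were put together after their values were seen, as were those of plastid assembly, RNA editing and replication below and one of protein degradation from the endoplasmic reticulum. In that list DER1, of the export channel for such proteins, alone of 5 rose (0.47), a call that held without DVL4 dex replicate 1 alone (limma adjusted p up to 0.0988 otherwise). Of the 36 called members of these 9 lists 23 lost the call when some single dex array was left out, and their counts are descriptions. Every gene put on these lists was kept whichever way it moved, but the lists are not complete. The PRA (11 measured, median -0.07) and VPS (10 measured, median 0.20) families of membrane traffic are not on the vesicle list. Neither family had a call. Of all named genes 5.14% rose and 6.1% fell. Because the members were picked with their values known, the list counts cannot be weighed against these shares. The autophagy list came from the genes' names alone, with its rise already known from an earlier look at the data.

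**Figure D4:**
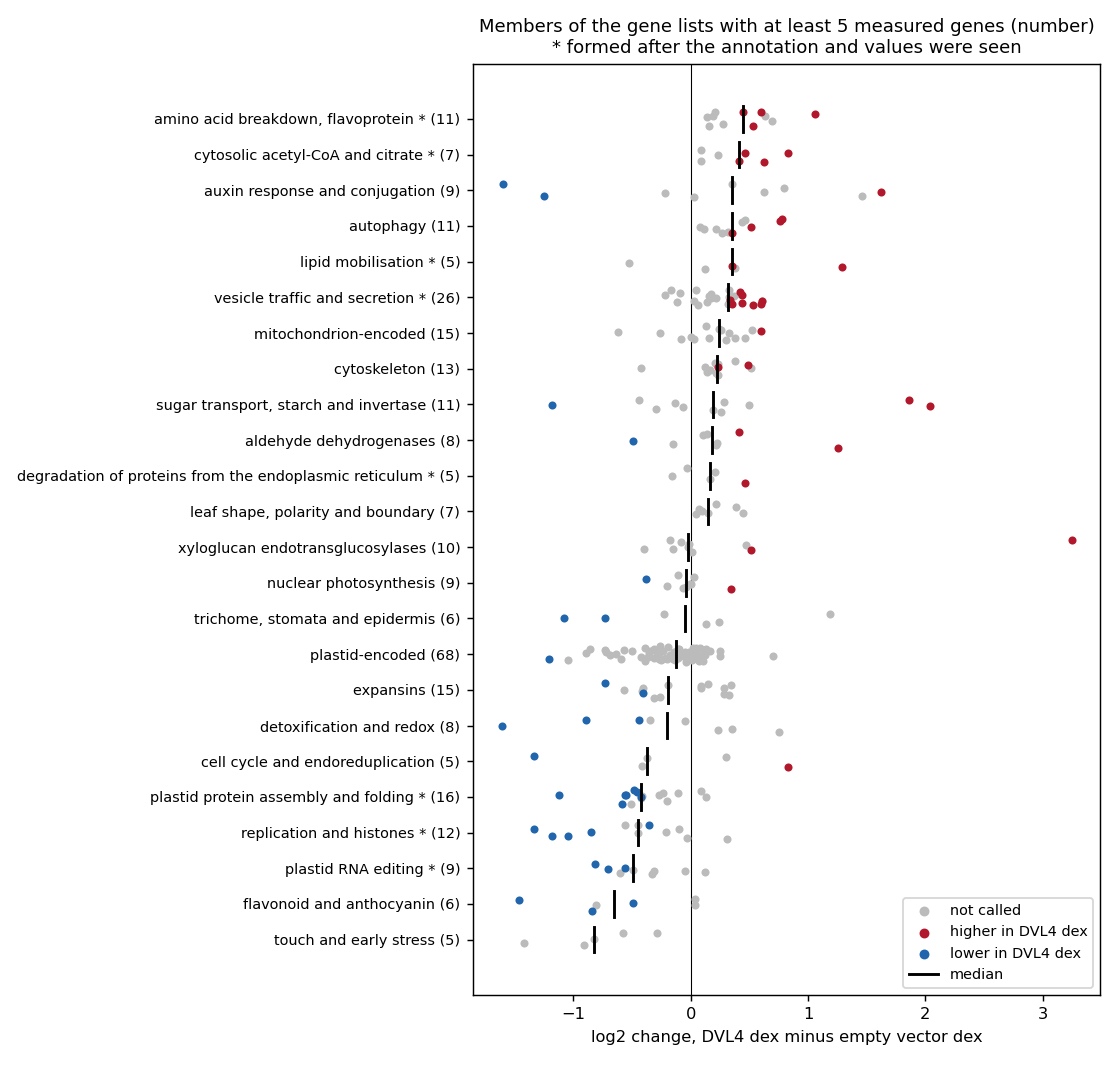
Log2 change (DVL4 dex minus empty vector dex) of each measured member of the gene lists with at least 5 members, ordered by median (black bar), with called members coloured and the number of members in brackets. All members of the autophagy, acetyl-CoA and amino acid breakdown lists lie right of 0, and all but 1 or 2 members of the plastid RNA editing, replication and plastid assembly lists lie left of it.

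Sugar transport, invertase and starch genes moved singly rather than as a list, with 2 of 11 higher and 1 lower. SAG29, also named SWEET15, a sugar exporter induced in senescing leaves, had 186, 177 and 119.9 in DVL4 dex, against 38.6, 46.9 and 45.4 in empty vector dex arrays, and 7.83, 7.82 and 4.56 in mock. It rose 3.63-fold (limma adjusted p = 0.00219), and WRKY53, the other measured marker of senescing leaves, was not called at 26.3, 38.9 and 13.4 in DVL4 dex, against 27.5, 113 and 85.0 in empty vector dex arrays. The 2 senescence markers summed to between 133 and 216 in DVL4 dex, against 66.1 to 160 in empty vector dex arrays. In mock arrays the sum was 13.7 to 24.8. Within it WRKY53 went opposite to SAG29 (-1.42, not called). Of 4 measured genes of the senescence list SAG29 alone was called, and WRKY6 (-0.47) and SAG101 (0.07) were not. The part of the senescence markers in the other rises was not tested. cwINV6 had 194, 166 and 84.1 in DVL4 dex, against 17.9, 51.2 and 42.4 in empty vector dex arrays, with the lowest empty vector value in its low-5' array. Of the 14 SWEET genes named as such, SWEET2 and SWEET17 fell and none rose. SWEET17 (-1.18) passed without empty vector dex replicate 2 alone of the 6 arrays left out (limma adjusted p up to 0.0786 otherwise). SWEET2 had 52.7, 48.3 and 81.9 in DVL4 dex, against 106, 155 and 149.5 in empty vector dex arrays (-1.19 ± 0.21).

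Cell wall genes split. Of 10 xyloglucan enzyme genes 2 rose, XTH19 and EXGT-A3, and the median was -0.02. EXGT-A3 had 1512, 1305 and 1699 in DVL4 dex, against 926, 1177 and 1058 in empty vector dex arrays, and its call (0.51) was lost in 4 of the 6 analyses without 1 dex array, with limma adjusted p-values up to 0.0779 without DVL4 dex replicate 1. XTH18, the chromosomal neighbour of XTH19, was not called and lay near the floor in several arrays. Of 15 expansins, proteins that loosen the wall, 2 fell and none rose. EXPB1 had 63.4, 66.6 and 85.8 in DVL4 dex, against 107, 119 and 129 in empty vector dex arrays, and EXPA15 changed by -0.41 ± 0.11. Both expansin calls were lost without DVL4 dex replicate 1 (0.0703 and 0.146), replicate 2 (0.0575 and 0.0799) or empty vector dex replicate 3 (0.054 and 0.103), and that of EXPA15 also without DVL4 dex replicate 3 (0.0522) or empty vector dex replicate 1 (0.0708). EXPA16 passed, as higher, without empty vector dex replicate 3 (0.04).

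In the TBL family of 22 genes 3 fell and 2 rose. Beside TBL26, TBL37 had 64.0, 68.6 and 68.3 in DVL4 dex, against 123, 97.8 and 103 in empty vector dex arrays. Its call was lost without DVL4 dex replicate 1 (limma adjusted p = 0.0531). The call of TBL38 (-0.84) held without DVL4 dex replicate 2 alone, with adjusted p-values up to 0.114 otherwise. The rises of TBL18 (0.45) and TBL25 (0.33) were lost without DVL4 dex replicate 1 (0.0807 and 0.176) or 2 (0.0634 and 0.112) or empty vector dex replicate 3 (0.068 and 0.131), that of TBL25 also without empty vector dex replicate 2 (0.101). TBL26 kept its call without any single array.

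The 3 calls among 9 measured auxin genes were all in genes of auxin conjugation. WES1, also called GH3.5, which joins amino acids to auxin, had 146, 168 and 167 in DVL4 dex, against 55.9, 41.8 and 60.5 in empty vector dex arrays, a 3.07-fold rise (limma adjusted p = 0.00076). IAGLU and UGT74D1, both for enzymes that join glucose to auxin, fell. UGT84B1, another glucosyltransferase gene of the list, went the other way (0.80) but was not called (limma adjusted p = 0.0608). IAGLU had 95.8, 86.2 and 123 in DVL4 dex, against 245, 300.2 and 388 in empty vector dex arrays (-1.60 ± 0.18, limma adjusted p = 0.00087). UGT74D1 had 129, 119 and 229 in DVL4 dex, against 268, 399 and 442 in empty vector dex arrays, and lost its call without DVL4 dex replicate 1 (0.0729) or 2 (0.0676) or empty vector dex replicate 2 (0.0509) or 3 (0.0603). The related genes GH3.1, GH3.3 and GH3.17 were dim, at most 28.9 in any array, and were not called, nor was any of 7 IAA genes, which encode repressors of auxin response. IAA29 had 288, 372 and 206 in DVL4 dex, against 135, 69.5 and 114 in empty vector dex arrays, and 7.88, 24.8 and 21.7 in mock. Its groups did not overlap, but its change of 1.46 ± 0.43 missed the threshold (limma adjusted p = 0.0624).

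For other hormones few genes were measured. JMT, which makes methyl jasmonate, had 25.1, 23.3 and 20.0 in DVL4 dex, against 38.4, 61.6 and 77.9 in empty vector dex arrays, and fell by 1.32 on the log2 scale (limma adjusted p = 0.0111), at low intensity. UGT76C2, a cytokinin glucosyltransferase gene, rose by 0.95 ± 0.18, with 199, 183 and 247 in DVL4 dex, against 80.5, 124 and 125 in empty vector dex and 238, 244 and 226 in mock arrays. No measured member of the cytokinin (2), gibberellin (4), ethylene (4), brassinosteroid (1) or salicylic acid (2) lists was called by limma, while 1 of the cytokinin and 2 of the ethylene genes had an unadjusted p under 0.05. GID1A, a gibberellin receptor gene, passed, as lower, without empty vector dex replicate 1 (limma adjusted p = 0.0375).

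Of 6 measured flavonoid genes 3 fell and none rose. CHIL, which assists chalcone synthesis, had 205, 218 and 274 in DVL4 dex, against 645, 524 and 769 in empty vector dex arrays, and 1278, 1252 and 1340.2 in mock. It fell 2.77-fold (-1.47 ± 0.15, limma adjusted p = 0.000639). UGT78D2, a flavonoid glucosyltransferase gene, had 317, 347 and 413 in DVL4 dex, against 579.8, 644 and 699.6 in empty vector dex arrays, and UGT78D1, a flavonol rhamnosyltransferase gene, changed by -0.49 ± 0.13. The call of UGT78D1 was lost without any one dex array except empty vector dex replicate 2, with limma adjusted p-values up to 0.125. Outside the list, UGT78D3, a flavonol arabinosyltransferase gene, lay under the floor in all 3 DVL4 dex arrays and between 13.0 and 15.5 in empty vector dex arrays, so no fold is given. CHI and DFR, for the chalcone isomerase and dihydroflavonol reductase, were not called (0.04 ± 0.23 and 0.04 ± 0.85).

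The single measured light signalling gene also fell. HYH, for a bZIP factor that acts with HY5 in light responses, had 45.7, 36.8 and 55.1 in DVL4 dex, against 124, 119 and 146 in empty vector dex arrays, and between 165 and 202 in mock (-1.52 ± 0.17, limma adjusted p = 0.000876). GI, a clock and flowering gene, had 568, 541 and 322 in DVL4 dex, against 201, 141 and 157 in empty vector dex arrays, and between 28.5 and 47.1 in mock, a 2.82-fold rise. COR27, the other measured clock gene, rose by 0.43, a call lost without any one of the 6 dex arrays (limma adjusted p from 0.0527 to 0.121).

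The cold-induced neighbours COR15B and COR15A fell together, while EEL of the same abscisic acid and cold list rose. COR15B had 1938, 1684 and 1531 in DVL4 dex, against 3533, 3049 and 3381 in empty vector dex arrays, and COR15A had 3964, 3502 and 3305 in DVL4 dex, against 5108, 6074 and 5547 in empty vector dex arrays. They changed by -0.96 ± 0.11 and -0.64 ± 0.10. Both belong to closely related sequences, and cross-hybridisation between them was not tested. COR47, a dehydrin gene, was not called (0.41).

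Of 8 genes of detoxification and redox repair 3 fell and none rose. MSRB6, a methionine sulfoxide reductase that repairs oxidised methionine, had 154, 174 and 320.1 in DVL4 dex, against 494, 677 and 734 in empty vector dex arrays, and between 1278 and 1311 in mock (-1.61 ± 0.25). Its neighbour and paralog MSRB5 changed by -0.44, a call lost without any one of the 6 dex arrays (limma adjusted p up to 0.14). AER, an alkenal reductase that removes reactive carbonyls, had 628, 616 and 692 in DVL4 dex, against 1158, 1403 and 1056 in empty vector dex arrays (-0.89 ± 0.11). The metallothionein gene MT1C fell 2.32-fold, at 328, 291 and 180.4 in DVL4 dex, against 542, 686 and 579 in empty vector dex arrays, and missed the threshold without empty vector dex replicate 2 (0.0562) or 3 (0.0504).

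Aldehyde dehydrogenases moved both ways. ALDH7B4, induced by osmotic stress and active against lipid-derived and amino acid-derived aldehydes, had 3453, 3389 and 3259 in DVL4 dex, against 1203, 1506 and 1551 in empty vector dex arrays, and between 316 and 433 in mock (1.25 ± 0.13, limma adjusted p = 0.00076). ALDH2C4, which makes ferulic and sinapic acid, had 1046, 1102 and 904 in DVL4 dex, against 1531, 1274 and 1489 in empty vector dex arrays, and fell by 0.49. ALDH10A9 rose by 0.41, and only without empty vector dex replicate 1 did its call hold with 1 array left out (limma adjusted p between 0.0447 and 0.148). The other 5 of 8 were not called.

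Some genes for building the plastid fell in DVL4 dex leaves, while nearly all genes encoded in the plastid were not called. Of 16 genes of plastid protein assembly and folding 7 fell and 0 rose, with a median of -0.42. Cpn60beta2, a subunit of the plastid chaperonin, had 223, 339.6 and 394 in DVL4 dex, against 822, 578 and 643 in empty vector dex arrays (-1.12 ± 0.20). LPA19 and PAM68, which help assemble photosystem II in Arabidopsis, fell by 0.56 and 0.48, and PDF1B, which removes the formyl group from new plastid proteins, fell by 0.59. Leaving out DVL4 dex replicate 1 gave 2 calls, replicate 2 gave 3 and empty vector dex replicate 3 gave 4, and Cpn60beta2 and LPA19 kept their calls without any single array. PAM68 (0.0656) and PDF1B (0.0674) did not pass without DVL4 dex replicate 1, nor PDF1B without replicate 2 (0.0531).

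Of 9 genes of plastid RNA editing factors 3 fell, CRR28, OTP81 and CRR21, and 0 rose, with 8 below 0 and a median of -0.49. OTP81 had 70.1, 71.1 and 66.8 in DVL4 dex, against 113, 98.7 and 131 in empty vector dex arrays, and CRR28 had 50.8, 59.6 and 68.5 in DVL4 dex, against 116, 90.3 and 108 in empty vector dex arrays. Without DVL4 dex replicate 1 none of the 3 passed, with limma adjusted p-values of 0.0575, 0.0626 and 0.095. CRR21 (-0.56) also missed the threshold without DVL4 dex replicate 2 (0.0627) or empty vector dex replicate 1 (0.0502) or 3 (0.0743). Of 68 genes encoded in the plastid 1 fell, rps16 for a ribosomal protein, and 0 rose, with 47 below 0 and a median of -0.13. Its arrays overlapped, with 131, 122 and 266 in DVL4 dex, against 257, 387 and 527 in empty vector dex arrays, and it was not called without DVL4 dex replicate 1 (0.162) or 2 (0.159) or empty vector dex replicate 2 (0.106) or 3 (0.14). The count of plastid-encoded genes called lower was 4 without empty vector dex replicate 1 and 2 without DVL4 dex replicate 3. Sizeable changes in both directions were not called, such as ndhH at -1.04 and rps14 at 0.70 (limma adjusted p = 0.592 and 0.234). A missing call in these genes is thus not evidence of an unchanged level.

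The 9 nuclear photosynthesis genes had a median of -0.04, with LHCB4.2 higher (0.35 ± 0.07) and LHCB4.3 lower (-0.38 ± 0.09), both for antenna proteins of photosystem II. Both calls were lost without DVL4 dex replicate 1 (0.0631 and 0.0903) or empty vector dex replicate 3 (0.0543 and 0.063), that of LHCB4.2 also without DVL4 dex replicate 2 (0.0661) and that of LHCB4.3 without empty vector dex replicate 1 (0.0574). Of 15 genes encoded in the mitochondrion, nad4 of respiratory complex I rose (0.60), with 982, 1214 and 774 in DVL4 dex, against 571, 639.5 and 721 in empty vector dex arrays. It passed without DVL4 dex replicate 3 alone of the 6 arrays left out, with limma adjusted p-values up to 0.12 otherwise.

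Several DNA replication and histone genes fell in DVL4 dex leaves. Of 12 such genes 5 fell and 0 rose, with 11 below 0 and a median of -0.45. PRL, for the MCM7 subunit of the replicative helicase, had 82.8, 119 and 68.9 in DVL4 dex, against 259, 176 and 239 in empty vector dex arrays (-1.33 ± 0.21, limma adjusted p = 0.00436). HTB1, a histone H2B gene, had 157, 185 and 194 in DVL4 dex, against 311, 357 and 295 in empty vector dex arrays (-0.85 ± 0.11). POLA3, of the DNA polymerase alpha and primase complex, and a second H2B gene, HTB2, fell by 1.19 and 1.05. Both lost their calls without DVL4 dex replicate 1 (0.0713 and 0.0698), replicate 2 (0.0681 and 0.0696) or empty vector dex replicate 2 (0.0525 and 0.0626), and HTB2 also without empty vector dex replicate 3 (0.081). The list had 2 calls with DVL4 dex replicate 1 left out, and 3 with DVL4 dex replicate 2 or empty vector dex replicate 2 or 3 left out.

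SIM, an inhibitor of cyclin-dependent kinases that moves cells from division to endoreduplication in Arabidopsis trichomes, rose 1.78-fold. It had 231, 248 and 218 in DVL4 dex, against 145, 108 and 142 in empty vector dex arrays, and between 92.1 and 109 in mock (limma adjusted p = 0.00604). The mitotic kinase genes AUR1, AUR2 and AUR3 were not called (-0.37, 0.30 and -0.42).

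In the epidermis, TRY, a repressor of trichome fate, had 108, 111 and 112 in DVL4 dex, against 264, 204 and 238 in empty vector dex arrays and 234, 257 and 276 in mock. It fell 2.12-fold (-1.08 ± 0.12, limma adjusted p = 0.000772) and was the only measured trichome marker. STOMAGEN, a mesophyll peptide that raises stomatal density, had 429, 565 and 612 in DVL4 dex, against 1096, 814 and 758 in empty vector dex arrays. It was not called without DVL4 dex replicate 1 (0.0729) or 2 (0.0545). SPCH, the first of the stomatal lineage factors, had 64.0, 6.23 and 8.76 in DVL4 dex, against 2.98, 12.1 and 3.06 in empty vector dex arrays, and was not called.

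On the lists of leaf form and of early stress, limma called 0 genes. The 7 measured regulators of leaf shape, polarity and boundaries (YAB3, YAB5, SPT, JAG, AN, PHV and NUB) all lay above 0, between 0.04 and 0.44, and 0 of them had an unadjusted p under 0.05. All 5 touch and early stress genes lay below 0, between -1.42 and -0.28, and 3 had an unadjusted p under 0.05, with STZ nearest the threshold (-0.91 ± 0.27, limma adjusted p = 0.0617). WRKY53 passed, as lower, without empty vector dex replicate 1 (0.0276). Of the 5 TUB genes for beta-tubulin 2 rose, with TUB5 at 1146, 1021 and 976 in DVL4 dex, against 772, 698 and 769 in empty vector dex arrays (0.49 ± 0.08). TUB6 changed by 0.23 and passed with 1 array left out for DVL4 dex replicate 3 alone (limma adjusted p up to 0.151 otherwise). None of the 4 reference genes, GAPC2, AT4G34270, AT2G28390 and PEX4, was called (-0.11, 0.06, 0.16 and 0.19), but PEX4 passed, as higher, without DVL4 dex replicate 3 (limma adjusted p = 0.033).

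Of all genes 4.03% rose and 4.81% fell, and of those with a name other than a locus code 5.14% and 6.1%. Over the 41 lists drawn up by gene name, with earlier results known, 262 distinct genes were measured, of which 23 rose and 26 fell. When 1 of the 6 dex arrays was left out, 23 of these 49 lost their call at least once, 21 of them without DVL4 dex replicate 1, 19 without replicate 2, 8 without replicate 3, and 10, 10 and 18 without empty vector dex replicates 1, 2 and 3.

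Gene families sharing a symbol were mostly split. Of 47 families with at least 5 measured genes, 16 had no call, among them the bZIP-named genes (14), the RALF-like peptides (11), the IAA genes (7) and the WRKY factors named as such (6). In the largest family, the 47 UGT glycosyltransferases, 3 rose and 5 fell. UGT84A3, which makes sinapoyl glucose and related esters, had 1216, 1088 and 1009 in DVL4 dex, against 615, 607 and 633 in empty vector dex arrays (0.83 ± 0.09), and UGT85A2 rose by 0.88 ± 0.18. Of 29 serine carboxypeptidase-like genes 2 rose and 3 fell. In SCPL27 the arrays held 292, 289.6 and 277 in DVL4 dex, against 165, 182 and 156 in empty vector dex arrays, and in scpl50 572, 575 and 557 in DVL4 dex, against 371, 347 and 364 in empty vector dex arrays.

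Of 15 tetraspanins, membrane proteins that organise others, TET7 rose by 0.63 ± 0.08 and TET3 fell by 0.72, while TET8 (-0.59) passed with 1 array left out for empty vector dex replicate 1 alone (limma adjusted p up to 0.125 otherwise). TET3 was level within its groups, at 216, 212 and 196 in DVL4 dex, against 343, 342 and 342 in empty vector dex arrays. Of 9 PUB ubiquitin ligases 2 fell, PUB24 with 28.7, 41.2 and 29.2 in DVL4 dex, against 80.3, 87.7 and 76.6 in empty vector dex arrays, and PUB19, which passed without empty vector dex replicate 2 alone of the 6 (limma adjusted p up to 0.168 otherwise). Of 11 GSTU glutathione transferases GSTU27 fell by 0.76 and GSTU18 by 0.31, the second with limma adjusted p-values up to 0.112 with 1 array left out and a call only without empty vector dex replicate 2.

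The low-5' arrays bear on all these values, because they make up 2 of the 3 DVL4 dex arrays. With low-5' status as a covariate 2471 probe sets were called, and 2068 of the 2317 (89.3%) were called in both fits. By gene, 565 were higher (4.23%) and 706 lower (5.29%) in that fit. Of the calls described above, those of ALDH10A9, EXPA15, MSRB5, PUB19, TUB6, UGT78D1 and nad4 were also lost there, with limma adjusted p-values between 0.0506 (EXPA15) and 0.0718 (PUB19). The status itself was called in 428 probe sets (1.88%), 335 of them lower in low-5' arrays, and 22 of the 2317 were among them. Within the low-5' arrays (DVL4 dex replicates 1 and 2 against empty vector dex replicate 1) the median change of the 2317 in the called direction was 0.66, and within the others (DVL4 dex replicate 3 against empty vector dex replicates 2 and 3) it was 0.62, beside 0.67 over all. The same arrays had entered the calls, so these medians are a description. Within the low-5' arrays 937 probe sets were called, within the others 398, and with the 3 low-5' arrays left out, so that a single DVL4 dex array was assumed to vary like the other groups, 4.

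Single genes differed in how alike their changes were in the array classes. The low-5' class held a single empty vector dex array, and the other class a single DVL4 dex array. Whether a change differed between the classes beyond the scatter of single arrays was not tested. XTH19 changed by 3.43 within the low-5' arrays and by 3.35 within the others, AT1G75990 by 2.92 and 2.98, and TRY by -1.27 and -0.97. The rise of cwINV6 was 3.33 within the low-5' arrays and 0.85 within the others, that of AT5G60140 4.31 and 2.09, and that of AT1G15010 3.85 and 2.13. The fall of AT1G13470 was -0.91 and -2.74. Among the 42 genes named for size or p, only AT3G28270 also differed with low-5' status itself (a log2 difference of -0.46, low-5' arrays minus the others, limma adjusted p = 0.0384), and its change between the lines was -1.81 and -1.92 in the classes.

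**Figure D5:**
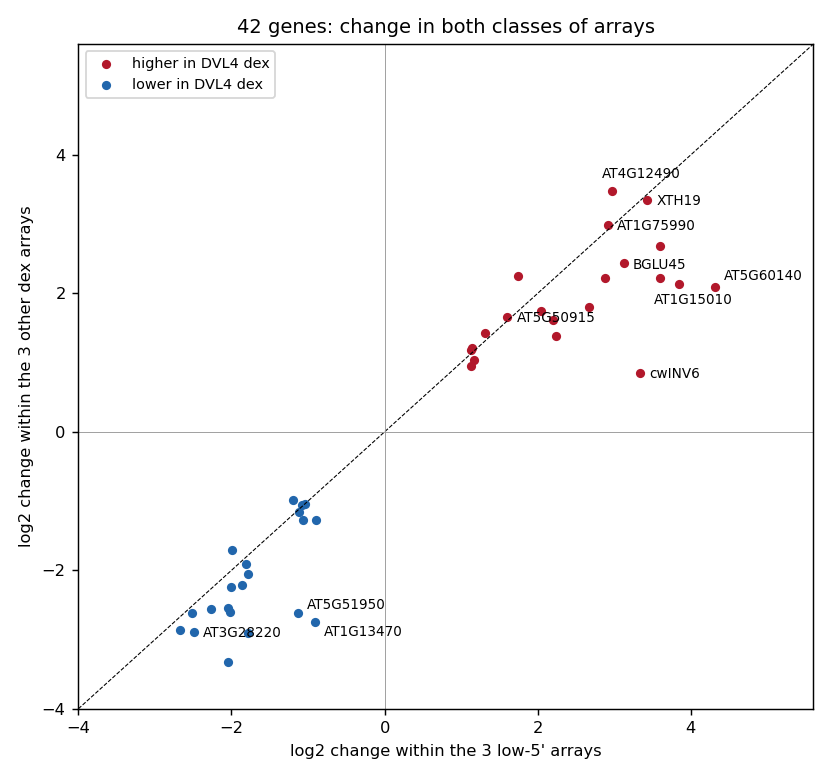
Log2 change (DVL4 dex minus empty vector dex) of the 42 genes named for size or p within the 3 low-5' arrays (x axis) and within the 3 other dex arrays (y axis), with the dashed line marking equal change. The genes farthest from the line are cwINV6, AT5G60140 and AT1G15010, whose rise was larger within the low-5' arrays, and AT1G13470 and AT5G51950, whose fall was smaller there.

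Position on the chromosome and repeated probe sets gave 2 further views. Of 5814 pairs of measured genes next to each other in the RefSeq annotation (TAIR10.1), both rose in 26, both fell in 26, and 21 moved in opposite directions. Over all 13356 genes 4.03% rose and 4.81% fell. Whether such pairs were more frequent than these shares give was not tested. Among pairs in which both genes have names, COR15B and COR15A, GT72B1 and TBL26, and MSRB5 and MSRB6 fell together. The measured neighbours of MYBC1 and EEL were not called. Of 146 genes with several probe sets 12 had a call in at least 1, and none had calls in opposite directions, but in 1 alone were all probe sets called.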

How the data were processed

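RNA from pooled rosette leaves was hybridised to 9 ATH1 arrays. The deposited values are linear intensity, 1 per probe set and array, made by the authors with dChip per the series text, with its version, expression model and normalization not given in the sources used here. No further normalization was applied. Values were floored at 4.92, log2 transformed and fitted over all 9 arrays with limma 3.58.1 in R 4.3.3 (lmFit, contrasts, eBayes with trend), with Benjamini-Hochberg adjustment over 22746 probe sets. The 64 control probe sets were left out. The code was tested on simulated data.

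Of the probe sets, 13513 had 1 gene in the platform annotation, 503 several and 8730 were unnamed here. A gene was taken by its brightest probe set, and symbols follow RefSeq. Genes were named where called, not overlapping between groups, above the median intensity of 78.6 and called with low-5' status as a covariate. These were the 15 largest rises and falls and the 10 of each with the smallest adjusted p. List and family members were picked in full up to 8, otherwise by the 4 smallest adjusted p-values in each direction. Not all members picked in this way are described above. Among those left out were UF3GT (-0.81), ARR15 (-0.74) and UGT73B4 (0.75), which were not called. The comparison, members and lists were chosen with earlier results of these data known. Sequences and promoter motifs were not analysed here.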

Additional observations from a re-analysis of the deposited data

How the results depend on the processing

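The 2317 called probe sets (1054 higher, 1263 lower) became 1164 (570 and 594) with the 6 dex arrays alone, 634 (300 and 334) with a minimum fold of 1.2, 937 (473 and 464) within the low-5' arrays, 398 (198 and 200) within the others and 4 (2 and 2) without the low-5' arrays. Other settings gave between 1596 (no intensity trend) and 3277 (array weights), and median centring moved the share called higher to 57.7%, beside 45.5%. Leaving out 1 array gave between 993 (without DVL4 dex replicate 1) and 2259 (without empty vector dex replicate 1) in all, 474 to 1054 higher and 519 to 1241 lower. Without DVL4 dex replicate 2 there were 1323, and without empty vector dex replicate 3, 1554. Deviations from the group means correlated at 0.0857, -0.148 and 0.128 for same-numbered arrays, and between -0.297 and 0.231 for differently numbered ones. With 3 arrays per group these values constrain one another. They cannot show whether replicate numbers mark a shared batch. The replicate block gave 2057 calls over all arrays and 340 (174 and 166) over the 6 dex arrays. Among 578 genes described or listed, 0 reversed a call under 23 settings, and 0 of the 374 that were bright enough did so without dim probe sets. All settings reuse the same arrays, so a reversal was unlikely from the start and its absence is no support. Of the 578, 88 came out weaker with the 6 dex arrays alone, 120 with a minimum fold of 1.2 and 152 with the replicate block over the 6 dex arrays. The deposited values carry no probe-level data, so signal over background could not be read, and changes near the floor depend on where it was set.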

Other observations

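Further named genes outside the naming rule and the lists changed as well, and they were chosen after their values were seen. TMT1, a monosaccharide transporter of the vacuole membrane, had 1573, 1369 and 1207 in DVL4 dex, against 785, 601 and 788 in empty vector dex arrays (0.93 ± 0.13, limma adjusted p = 0.00204). GTR1, a transporter that moves glucosinolates, had 278, 319 and 307 in DVL4 dex, against 732, 622 and 697 in empty vector dex arrays, with a change of -1.18 ± 0.14 (limma adjusted p = 0.000956). XEG113, which adds arabinose to extensins of the cell wall, rose by 0.78 ± 0.10, at 579, 529.7 and 592 in DVL4 dex, against 304, 320.1 and 368 in empty vector dex arrays.

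NANA, an aspartic protease gene of the plastid, changed by -1.43 ± 0.18 (limma adjusted p = 0.00127). TINY2, a transcription factor gene of the DREB group, had 52.8, 44.0 and 66.7 in DVL4 dex, against 123, 118 and 116 in empty vector dex arrays (-1.15 ± 0.17). CYTC6A, for cytochrome c6A of the plastid, changed by -0.63 ± 0.10. These 6 genes kept their calls without any single dex array. AGO7, which acts in the trans-acting small RNA pathway that sets leaf polarity and phase change, had 24.3, 33.9 and 14.1 in DVL4 dex, against 112, 57.9 and 88.5 in empty vector dex arrays, and 42.6, 28.3 and 21.3 in mock. Its change of -1.88 ± 0.38 was called, but not without DVL4 dex replicate 1 (limma adjusted p = 0.0553) or empty vector dex replicate 3 (0.0522).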
